A study of Mus musculus with 8 samples.

Results

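Collagens are the structural proteins of the extracellular matrix, and the genes described here encode their single chains. They were every gene of the deposited tables whose symbol has the form Col, number, a, number, and 44 of 21949 genes met that rule, with 219 of 99671 transcripts between them. Each gene was represented by its transcript with the highest mean count over all libraries. The chains fell into 11 fibrillar collagens, 6 basement membrane collagens and 27 others. Testes of C57BL/6 mice at postnatal day 24 were compared between Miwi-null animals, which lack the PIWI protein gene Piwil1, and wild-type (WT) animals, and no other allele or agent is named in the labels. Both total RNA and footprints (ribosome-protected fragments or RPF, pieces of mRNA left after nuclease treatment because a ribosome covered them) were sequenced, with 2 libraries for each genotype and assay. The labels do not tie libraries to animals, and the p-values below therefore rest on the spread between libraries, which may be partly technical.

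A collagen molecule is a triple helix of 3 chains, which are identical in some types and differ in others. The chains of 1 molecule are made in the same cell. Fibrillar collagens pack into banded fibres, the type IV chains form the sheet-like network of basement membranes, and the remaining types bind fibre surfaces, form beaded filaments or span the cell membrane. In the testis, basement membrane and collagen fibres surround each seminiferous tubule, where peritubular myoid cells and Sertoli cells secrete them, and fibroblasts add interstitial matrix. Germ cells fill most of the tubule, and their RNA makes up much of a whole-testis library.

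Gene counts per library were 12721791 and 11130949 for null RNA, 15592797 and 13874636 for WT RNA, 11662661 and 28334622 for null footprints, and 28054424 and 17735638 for WT footprints. Values below are CPM, the counts per scaled library size, unless FPKM is named, and 1 count was worth 0.0353 to 0.0898 CPM before scaling. Piwil1 stood at 3.52 and 2.27 CPM in null RNA against 552 and 533 CPM in WT RNA, and at 3.30 and 3.26 CPM in null footprints against 482 and 389 CPM in WT footprints, so every library carried the level its genotype label calls for. Counts of footprint replicates spread further apart than those of RNA replicates, with a chi-square per gene of 21.2 in null and 42 in WT footprints against 1.18 in null and 3.69 in WT RNA. RNA inserts were longer in the null libraries, 287.6 and 284 bases on average, than in the WT libraries, 266 and 244.5. Reads of a whole testis cannot tell fewer cells of a type from less RNA per cell, and this holds for every change below. Every level is also relative to the rest of its library, so it moves with the RNA of other cells. Amounts per testis were not measured.

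Promoters of 3 genes are shown as sequence because their genes lost RNA and footprints together in the null testes and stand for 2 of the classes. Col1a2 and Col3a1 encode chains of the main fibres, and Col6a1 a chain of the beaded filaments. The 250 bases before each gene's annotated start follow (RefSeq, GRCm38.p6), read 5′ to 3′ on the gene's own strand, at chr6:4505368-4505617 (plus strand) for Col1a2, chr1:45311288-45311537 (plus strand) for Col3a1 and chr10:76726045-76726294 (minus strand) for Col6a1. Capitals mark matches, searched on both strands, to the CCAAT box motif (letters CCAAT), to the TATA box motif (letters TATAAA) and to the GC box motif (letters GGGCGG).
Col1a2: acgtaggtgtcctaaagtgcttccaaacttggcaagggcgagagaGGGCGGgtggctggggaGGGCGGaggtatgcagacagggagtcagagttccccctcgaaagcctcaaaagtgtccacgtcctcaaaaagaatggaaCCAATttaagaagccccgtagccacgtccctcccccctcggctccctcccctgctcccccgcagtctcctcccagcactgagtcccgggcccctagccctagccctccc
Col3a1: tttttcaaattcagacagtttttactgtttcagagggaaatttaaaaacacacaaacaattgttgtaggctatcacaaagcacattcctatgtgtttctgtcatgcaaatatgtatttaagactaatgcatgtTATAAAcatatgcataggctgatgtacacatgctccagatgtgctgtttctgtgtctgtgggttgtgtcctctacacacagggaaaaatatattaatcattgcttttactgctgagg
Col6a1: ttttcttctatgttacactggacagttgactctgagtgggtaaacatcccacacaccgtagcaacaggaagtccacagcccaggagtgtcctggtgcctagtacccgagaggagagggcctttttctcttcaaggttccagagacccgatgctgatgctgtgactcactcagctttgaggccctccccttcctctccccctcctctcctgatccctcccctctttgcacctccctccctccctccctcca
The Col1a2 window held CCAAT at 109 to 105 bases before the start and GGGCGG at 205 to 200 and at 188 to 183 bases. The Col3a1 window held TATAAA at 117 to 112 bases, and the Col6a1 window held none of these letters. RefSeq windows of this length were matched for 35 collagen genes. CCAAT stood in 13 of them, or 37.1%, against 33.8% of all 32851 windows, TATAAA in 5, or 14.3%, against 12.4%, and GGGCGG in 21, or 60.0%, against 32.7%. The collagen share counts genes with a match in any of their windows, while the share of all windows counts each window singly. The shares are thus in unlike units, and a higher collagen share cannot be read as an enrichment. These are letter matches in the windows and were not tied to any factor here.

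Collagens made up a smaller share of the libraries of Miwi-null testes. Summed over the 44 genes, collagens took 0.0656% and 0.0661% of all counts in null RNA against 0.137% in both WT RNA libraries. In footprints the shares were 0.0525% and 0.0550% in null against 0.0987% and 0.111% in WT. The null and WT libraries did not overlap in either assay. In scaled units the fibrillar collagens summed to 178 and 176 CPM in null RNA against 504 and 463 CPM in WT RNA, the basement membrane collagens to 114 and 116 CPM in null RNA against 303 and 324 CPM in WT RNA, and the others to 346 and 350 CPM in null RNA against 630 and 632 CPM in WT RNA. Fibrillar footprints summed to 131 and 119 CPM in null against 313 and 376 CPM in WT, basement membrane footprints to 90.2 and 79.6 CPM in null against 176 and 217 CPM in WT, and the others to 326 and 341 CPM in null against 451 and 528 CPM in WT. In no class did null and WT libraries of an assay overlap.

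Of the 44 genes 42 had enough counts to be tested. Col10a1, of growth plate cartilage, had 2 counts in 1 WT RNA library and 0 elsewhere, and Col9a2, a cartilage chain, had 0 to 5 counts per library. A gene was called where edgeR's quasi-likelihood test gave it a Benjamini-Hochberg adjusted p under 0.05, with 16051 genes in the adjustment. Changes are log2 of null over WT with their standard error (SE). In RNA 22 collagens were lower and 4 higher in null testes. Over all genes tested, 20.8% were lower and 16.5% higher. In footprints 22 were lower and 5 higher, against a background of 13.4% lower and 12.0% higher. The median RNA change was -0.85 for the collagens and -0.07 for all genes, and the median footprint change -0.58 and -0.00. Of the collagens, 20 were lower in both assays, 2 were higher in both, 11 were called in neither and 0 were called in opposite directions. The sign of the change was the same in both assays for 36 of 42. These joint counts were not made over all genes, so whether such agreement is particular to collagens was not tested. A single model covered both assays, so RNA libraries also bear on the error of a footprint change.

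By class, all 6 basement membrane collagens were lower in both assays, with a median change of -1.37 in RNA and -1.22 in footprints. Among the 11 fibrillar collagens 6 were lower and 1 higher in RNA, and 6 lower and 1 higher in footprints, with medians of -0.89 and -0.60. Of the 25 tested others 10 were lower and 3 higher in RNA, and 10 lower and 4 higher in footprints, with medians of -0.54 and 0.07. The shares over all genes are those given above for the collagens together. The classes were not tested against each other.

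**Figure D1:**
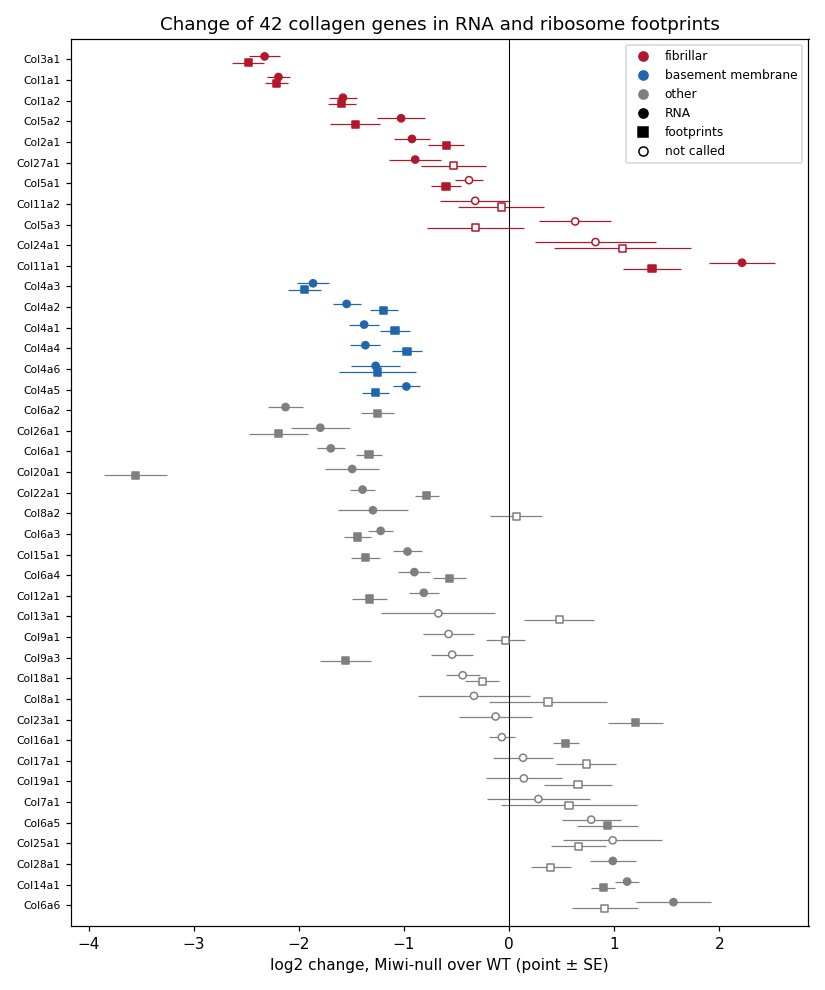
Change of each of the 42 tested collagen genes, as log2 of Miwi-null over WT on the x axis with its SE, circles for RNA and squares for footprints, filled where the gene was called. All 6 basement membrane genes (blue) lie left of 0 in both assays, while fibrillar (red) and other (grey) genes reach from clear decreases to increases, among them those of Col11a1 and Col14a1.

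Levels between genes were compared per coding length, as the deposited FPKM. Of the genes whose FPKM follow in this paragraph, Col22a1, Col16a1 and Col18a1 were represented by a transcript shorter than their longest coding one. It had 3174 against 4839 bases for Col22a1, 3849 against 4740 for Col16a1 and 3945 against 5322 for Col18a1. Their levels rest on that choice. The highest level in all 4 groups was that of Col22a1, a fibril-associated collagen of tissue junctions, at 21.2 ± 1.5 FPKM in null RNA and 53.2 ± 0.885 FPKM in WT RNA (SD, n = 2 each). In null RNA it was followed by Col16a1 at 15.4 ± 0.545 FPKM, Col1a2 at 9.0 ± 0.923, Col2a1 at 8.81 ± 0.558 and Col18a1 at 8.65 ± 0.385 FPKM. The last 3 of these lie within their replicate spread of one another. In WT RNA the order after Col22a1 was Col1a2 at 25.7 ± 1.55 FPKM, Col3a1 at 19.4 ± 0.574, Col1a1 at 18.2 ± 0.894 and Col2a1 at 16.0 ± 2.18 FPKM. There Col2a1, Col4a1 at 15.9 ± 0.966 FPKM and Col16a1 at 15.4 ± 0.363 FPKM were not separated by their spread. The SD ranges of Col3a1 and Col1a1 overlapped as well, and so did those of Col1a1 and Col2a1. Col3a1 thus ranked 9 of 44 in null RNA and 3 of 44 in WT RNA, and Col1a1 ranked 8 in null RNA and 4 in WT RNA. In null RNA ranks 8 to 11, Col1a1 at 4.15 ± 0.171 FPKM, Col3a1 at 4.06 ± 0.586, Col4a4 at 4.06 ± 0.0103 and Col6a1 at 3.95 ± 0.392 FPKM, were not separated by their spread.

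The chains of the 2 main fibre-forming types fell furthest among the fibrillar collagens. Col1a1 and Col1a2 are the chains of type I collagen, the main fibre of connective tissue, and Col3a1 forms type III collagen, which is found with it in soft tissues and vessel walls. Col3a1 (ENSMUSG00000026043.18, chromosome 1, 45311538 to 45349706) had 19.4 and 23.7 CPM in null RNA against 110 and 106 CPM in WT RNA, and 13.0 and 14.4 CPM in null footprints against 68.7 and 85.7 CPM in WT footprints. Every null library lay below every WT library of its assay. Its RNA fell by 2.33 ± 0.15 on the log2 scale (5.01-fold, edgeR adjusted p = 1.47e-05) and its footprints by 2.48 ± 0.15 (5.59-fold, adjusted p = 6.99e-06).

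Col1a1 (ENSMUSG00000001506.10, chromosome 11, 94936224 to 94953042) had 22.5 and 21.2 CPM in null RNA against 103 and 96.8 CPM in WT RNA. Its footprints stood at 12.4 and 14.2 CPM in null against 60.6 and 63.9 CPM in WT. Both assays separated the genotypes without overlap, by -2.19 ± 0.11 in RNA (edgeR adjusted p = 5.1e-06) and -2.21 ± 0.11 in footprints (adjusted p = 2.48e-06). Its partner Col1a2 (ENSMUSG00000029661.16, chromosome 6, 4505618 to 4541543) had 48.0 and 41.4 CPM in null RNA against 139 and 128 CPM in WT RNA. Col1a2 footprints stood at 42.3 and 37.1 CPM in null against 109 and 130 CPM in WT. It fell less than Col1a1 in RNA, by 1.58 ± 0.13 (edgeR adjusted p = 5.79e-05), and in footprints by 1.59 ± 0.13 (adjusted p = 4.78e-05). The difference between both chains was not tested.

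Col2a1 forms type II collagen, known best from cartilage. This gene (ENSMUSG00000022483.17, chromosome 15, 97975602 to 98004724) had 49.6 and 45.2 CPM in null RNA against 98.5 and 81.5 CPM in WT RNA, a change of -0.92 ± 0.17 (edgeR adjusted p = 0.00332). In footprints it had 46.6 and 38.0 CPM in null against 55.0 and 72.8 CPM in WT. The groups did not overlap, and the change of -0.60 ± 0.17 passed (edgeR adjusted p = 0.0313) but did not without WT RPF replicate 2 (0.0815), null RPF replicate 2 (0.168) or any single RNA library (0.0522 to 0.0592), nor with the footprint libraries fitted alone (0.110).

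Type V chains sit inside type I fibres and control their width, and type XI chains do so in cartilage. Col5a2 (chromosome 1, 45374331 to 45503282), the next gene after Col3a1, had 1.76 and 2.53 CPM in null RNA against 4.23 and 4.47 CPM in WT RNA, and 1.07 and 1.04 CPM in null footprints against 2.92 and 2.89 CPM in WT footprints. No null library reached a WT library. Its changes were -1.03 ± 0.23 in RNA (edgeR adjusted p = 0.00838, but 0.0852 without null RNA replicate 1) and -1.46 ± 0.24 in footprints (adjusted p = 0.0025). Col5a1, the chain it joins, had 22.7 and 24.7 CPM in null RNA against 31.8 and 29.8 CPM in WT RNA and was not called there (-0.38 ± 0.14, edgeR adjusted p = 0.0583). Its footprints, 9.46 and 8.08 CPM in null against 12.0 and 14.3 CPM in WT, changed by -0.60 ± 0.15 (edgeR adjusted p = 0.0174, but 0.133 without null RPF replicate 2 and 0.0925 with the footprint libraries fitted alone). Col27a1 was called lower in RNA alone, at 5.13 and 7.06 CPM in null against 11.7 and 10.8 CPM in WT. That change of -0.89 ± 0.25 (edgeR adjusted p = 0.0217) did not pass without WT RNA replicate 1 (0.125), WT RNA replicate 2 (0.0759) or null RNA replicate 1 (0.165), or with counts summed over transcripts (0.0554).

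Col11a1 was the fibrillar collagen that rose. This gene (ENSMUSG00000027966.20, chromosome 3, 114030479 to 114220756) had 3.90 and 3.66 CPM in null RNA against 1.01 and 0.595 CPM in WT RNA, and 2.95 and 2.70 CPM in null footprints against 1.26 and 0.851 CPM in WT footprints. All null libraries lay above the WT libraries of their assay. It rose by 2.22 ± 0.31 in RNA (edgeR adjusted p = 0.000895) and by 1.36 ± 0.27 in footprints (adjusted p = 0.00696), from a low level. The remaining fibrillar genes Col5a3, Col11a2 and Col24a1 were called in neither assay, with RNA changes of 0.63 ± 0.34, -0.32 ± 0.33 and 0.82 ± 0.58.

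Type IV collagen is the scaffold of basement membranes, and its 6 chains join in set combinations. Col4a1 pairs with Col4a2 in nearly all basement membranes, while Col4a3, Col4a4, Col4a5 and Col4a6 occur in more specialised ones. The genes lie head to head in 3 pairs. In RefSeq (GRCm38.p6) Col4a1 (chromosome 8, 11198423 to 11312889) and Col4a2 (11312805 to 11449287) overlap by 85 bases at their starts. Col4a4 (chromosome 1, 82448419 to 82587034) and Col4a3 (82586921 to 82722059) overlap by 114 bases. Col4a6 (chromosome X, 141165403 to 141474095) and Col4a5 (141475370 to 141689236) lie 1274 bases apart. Reads over such an overlap cannot be assigned if strand was not used. The deposited lengths are coding lengths, and which part of each transcript was counted is not stated.

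Col4a1 had 36.6 and 41.0 CPM in null RNA against 96.3 and 105 CPM in WT RNA, and 32.1 and 27.9 CPM in null footprints against 56.0 and 70.9 CPM in WT footprints. Col4a2 had 28.9 and 28.7 CPM in null RNA against 80.6 and 87.7 CPM in WT RNA, and 21.2 and 19.6 CPM in null footprints against 41.2 and 52.1 CPM in WT footprints. The genotypes were separated without overlap for both partners. Col4a1 fell by 1.38 ± 0.14 in RNA (edgeR adjusted p = 0.000179) and by 1.08 ± 0.14 in footprints (adjusted p = 0.000732). Col4a2 fell by 1.55 ± 0.13 in RNA (edgeR adjusted p = 6.63e-05) and by 1.19 ± 0.13 in footprints (adjusted p = 0.000291).

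Col4a3 had 12.4 and 10.2 CPM in null RNA against 40.3 and 42.2 CPM in WT RNA, and 9.55 and 8.08 CPM in null footprints against 30.5 and 36.7 CPM in WT footprints. It had the largest decrease of the 6 chains in both assays, -1.87 ± 0.16 in RNA (edgeR adjusted p = 5.8e-05) and -1.94 ± 0.16 in footprints (adjusted p = 3.89e-05). Its neighbour Col4a4 had 24.7 and 24.8 CPM in null RNA against 63.6 and 64.0 CPM in WT RNA, and 21.8 and 18.2 CPM in null footprints against 34.4 and 43.6 CPM in WT footprints. Here too the null libraries were all the lower ones, with changes of -1.37 ± 0.14 in RNA (edgeR adjusted p = 0.000183) and -0.97 ± 0.14 in footprints (adjusted p = 0.00132). Of the X-linked pair, Col4a5 fell by 0.98 ± 0.13 in RNA and by 1.27 ± 0.13 in footprints (edgeR adjusted p = 0.000646 and 0.000185). Col4a6, the lowest of the 6, had 2.22 and 2.70 CPM in null RNA against 5.17 and 6.70 CPM in WT RNA (change -1.27 ± 0.23, edgeR adjusted p = 0.00342). In footprints it had 0.357 and 0.381 CPM in null against 0.815 and 1.02 CPM in WT. That footprint call (-1.25 ± 0.36, edgeR adjusted p = 0.0354) was lost with DESeq2 (0.100), without any single footprint library (0.0649 to 0.173) and without either null RNA library (0.0540 and 0.0543).

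**Figure D2:**
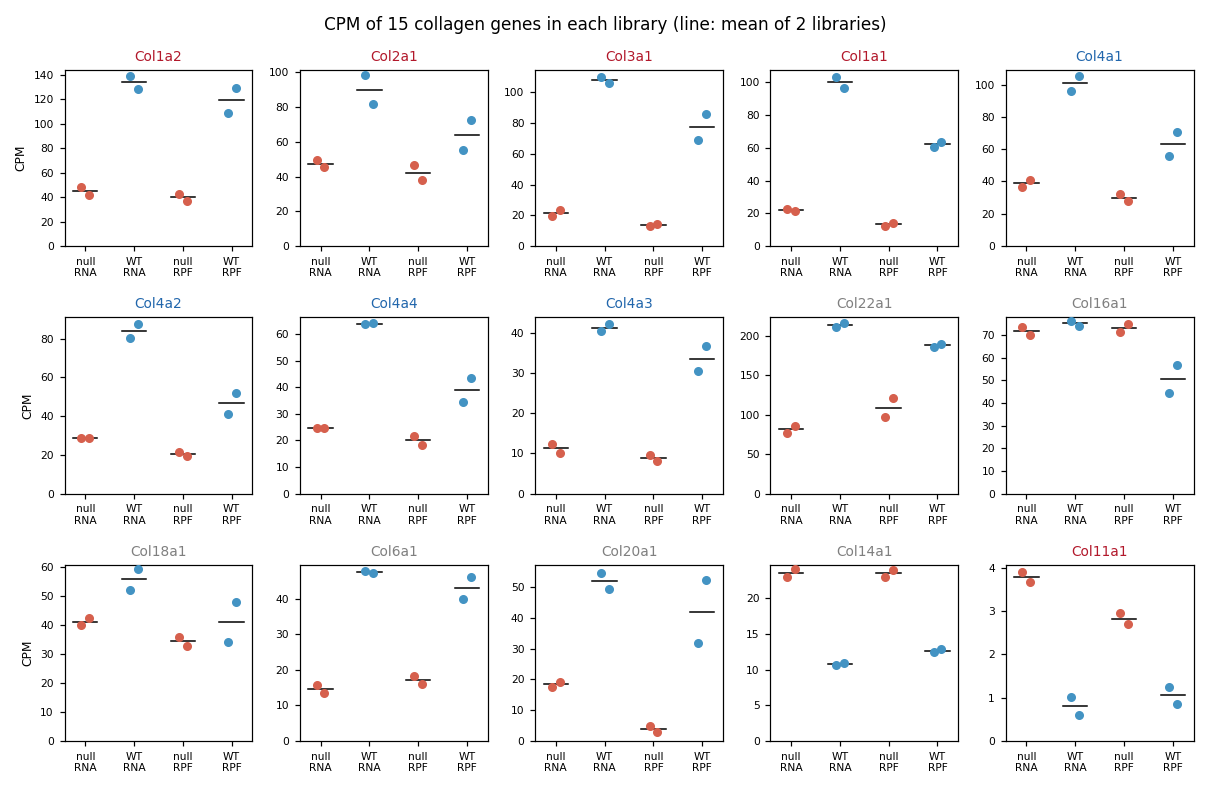
CPM (y axis, a scale of its own for each gene) of 15 collagen genes in each library, null (red points) left of WT (blue points) for RNA and then for footprints, with lines at the mean of 2 libraries. Null points lie below WT points for the type I, III and IV chains and for Col22a1, Col6a1 and Col20a1, above them for Col14a1 and Col11a1, and for Col16a1 only the footprints are above.

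Fibril-associated collagens attach to the surface of fibres, and 8 of the 9 in the table were tested. In RNA 3 were lower and 1 higher, where 20.8% of all genes were lower and 16.5% higher. In footprints 4 were lower and 2 higher, where 13.4% of all genes were lower and 12.0% higher. Col22a1 (ENSMUSG00000079022.10, chromosome 15, 71795795 to 72150979) had 77.2 and 85.1 CPM in null RNA against 210 and 216 CPM in WT RNA, and 97.2 and 120 CPM in null footprints against 186 and 189 CPM in WT footprints. The groups stood apart in both assays. Its RNA fell by 1.39 ± 0.12 (edgeR adjusted p = 6.54e-05) and its footprints by 0.78 ± 0.12 (adjusted p = 0.00155).

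Col20a1 (ENSMUSG00000016356.18, chromosome 2, 180983323 to 181017545) had the largest footprint decrease of the tested collagens as a fold change. In CPM, Col1a1, Col1a2, Col3a1 and Col22a1 lost more. It had 17.7 and 19.3 CPM in null RNA against 54.6 and 49.3 CPM in WT RNA, and 4.73 and 2.84 CPM in null footprints against 31.7 and 52.3 CPM in WT footprints. Null libraries were the lower ones in both assays, and the 2 WT footprint libraries lay far apart. Its RNA fell by 1.49 ± 0.26 (2.81-fold, edgeR adjusted p = 0.00248) and its footprints by 3.55 ± 0.30 (11.7-fold, adjusted p = 5.5e-05). The translational efficiency (TE) compares footprints with RNA, and its change is the footprint change less the RNA change. For Col20a1 it was -2.06 ± 0.39 (edgeR adjusted p = 0.0115), and it did not pass without any 1 of the 4 RNA libraries (0.0512 to 0.0649).

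Col14a1 binds type I fibres and rose in both assays. This gene (ENSMUSG00000022371.16, chromosome 15, 55307644 to 55520803) had 23.0 and 24.1 CPM in null RNA against 10.7 and 10.9 CPM in WT RNA, and 23.0 and 24.0 CPM in null footprints against 12.5 and 12.9 CPM in WT footprints. Replicates lay within about 1 CPM of each other in each group while the genotypes stood apart. It rose by 1.12 ± 0.12 in RNA (2.18-fold, edgeR adjusted p = 0.000184) and by 0.89 ± 0.11 in footprints (1.86-fold, adjusted p = 0.000547). Col16a1 (chromosome 4, 130047817 to 130099277) had 73.5 and 69.7 CPM in null RNA against 76.2 and 74.1 CPM in WT RNA, and 71.2 and 74.9 CPM in null footprints against 44.2 and 56.5 CPM in WT footprints. Its RNA was not called (-0.07 ± 0.13, edgeR adjusted p = 0.700), whereas its footprints rose by 0.54 ± 0.13 (adjusted p = 0.0142, but 0.0556 without null RPF replicate 2 and 0.0927 with the footprint libraries fitted alone). The TE change of Col16a1 itself, 0.61 ± 0.18, did not pass (edgeR adjusted p = 0.0527). Col12a1 fell by 0.81 ± 0.14 in RNA and by 1.33 ± 0.16 in footprints (edgeR adjusted p = 0.00256 and 0.000536). Col9a3 was called in footprints alone (-1.56 ± 0.24, edgeR adjusted p = 0.00186), with -0.54 ± 0.20 in RNA (adjusted p = 0.0614), and Col9a1 and Col19a1 were called in neither.

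Type VI collagen forms beaded filaments close to cells, built from Col6a1, Col6a2 and a further chain, most often Col6a3. All 3 genes fell. Col6a1 (ENSMUSG00000001119.7, chromosome 10, 76708792 to 76726044) had 15.7 and 13.6 CPM in null RNA against 47.8 and 47.3 CPM in WT RNA, and 18.3 and 16.0 CPM in null footprints against 40.0 and 45.9 CPM in WT footprints. Col6a2 (ENSMUSG00000020241.13, chromosome 10, 76595756 to 76623630) had 6.74 and 6.45 CPM in null RNA against 28.7 and 29.0 CPM in WT RNA, and 7.05 and 6.79 CPM in null footprints against 14.4 and 18.8 CPM in WT footprints. Null and WT libraries did not overlap for either gene. Col6a1 fell by 1.70 ± 0.13 in RNA (edgeR adjusted p = 4.21e-05) and by 1.33 ± 0.13 in footprints (adjusted p = 0.000123). Col6a2 fell by 2.13 ± 0.16 in RNA (edgeR adjusted p = 3.63e-05) and by 1.25 ± 0.16 in footprints (adjusted p = 0.000551). Col6a3 fell by 1.22 ± 0.12 and 1.44 ± 0.13 (edgeR adjusted p = 0.000139 and 7.55e-05).

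Col6a6, Col6a5 and Col6a4, later relatives of Col6a3, lie next to each other on chromosome 9 (105689417 to 106096828) and did not move together. Col6a4 had 24.8 and 20.7 CPM in null RNA against 45.1 and 39.9 CPM in WT RNA (-0.90 ± 0.15, edgeR adjusted p = 0.00224). Its footprints, 13.9 and 14.2 CPM in null against 18.5 and 23.5 CPM in WT, changed by -0.57 ± 0.15 (edgeR adjusted p = 0.0279), a call lost without WT RNA replicates 1 and 2 (0.0529 and 0.0524), WT RPF replicate 2 (0.0765) or null RPF replicates 1 and 2 (0.0912 and 0.0999), and with the footprint libraries fitted alone (0.0944). Col6a6 had 2.68 and 2.35 CPM in null RNA against 0.738 and 0.968 CPM in WT RNA, and rose by 1.56 ± 0.36 (edgeR adjusted p = 0.00928, but 0.0804 without WT RNA replicate 1 and 0.0640 without null RNA replicate 1). Col6a5 rose in footprints by 0.93 ± 0.29 (edgeR adjusted p = 0.0470). This call held in only 6 of 19 alternative fits, and it was lost without any single library other than WT RPF replicate 2. The RNA change of Col6a5 was 0.78 ± 0.28 (edgeR adjusted p = 0.0564). Col28a1, a relative of type VI, rose in RNA by 0.99 ± 0.22 (edgeR adjusted p = 0.00809, but 0.0574 without WT RNA replicate 2 and 0.0525 without null RNA replicate 2).

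Col15a1 and Col18a1, the multiplexins, are collagens of the basement membrane zone that carry sugar chains. Col15a1 fell by 0.97 ± 0.14 in RNA and by 1.36 ± 0.14 in footprints (edgeR adjusted p = 0.00093 and 0.000169). Col18a1 had 40.0 and 42.4 CPM in null RNA against 52.3 and 59.6 CPM in WT RNA, and 35.9 and 33.0 CPM in null footprints against 34.1 and 48.2 CPM in WT footprints. Its footprint groups overlapped, and neither -0.44 ± 0.16 in RNA nor -0.26 ± 0.16 in footprints passed (edgeR adjusted p = 0.0634 and 0.286).

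Col26a1, a collagen first described in testis and ovary (ENSMUSG00000004415.15, chromosome 5, 136741759 to 136883376), had 1.45 and 2.70 CPM in null RNA against 6.91 and 7.37 CPM in WT RNA, and 1.52 and 1.21 CPM in null footprints against 5.36 and 6.86 CPM in WT footprints. Null libraries were all below WT libraries, by -1.80 ± 0.28 in RNA and -2.20 ± 0.28 in footprints (edgeR adjusted p = 0.00156 and 0.000626). The 4 membrane-spanning collagens Col13a1, Col17a1, Col23a1 and Col25a1 had RNA changes of -0.67 ± 0.54, 0.13 ± 0.28, -0.13 ± 0.35 and 0.99 ± 0.47, which did not pass. Col23a1 had 3.12 and 2.5 CPM in null footprints against 1.19 CPM in both WT footprint libraries and rose by 1.2 ± 0.26 (edgeR adjusted p = 0.0104, but 0.0549 with counts summed over transcripts). Of the tested network and anchoring chains Col8a2 was lower in RNA alone (-1.30 ± 0.33, edgeR adjusted p = 0.0152), and that call was lost without any 1 of the 4 RNA libraries (0.0540 to 0.106) and with DESeq2 (0.121). Col7a1 and Col8a1 were called in neither assay.

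**Figure D3:**
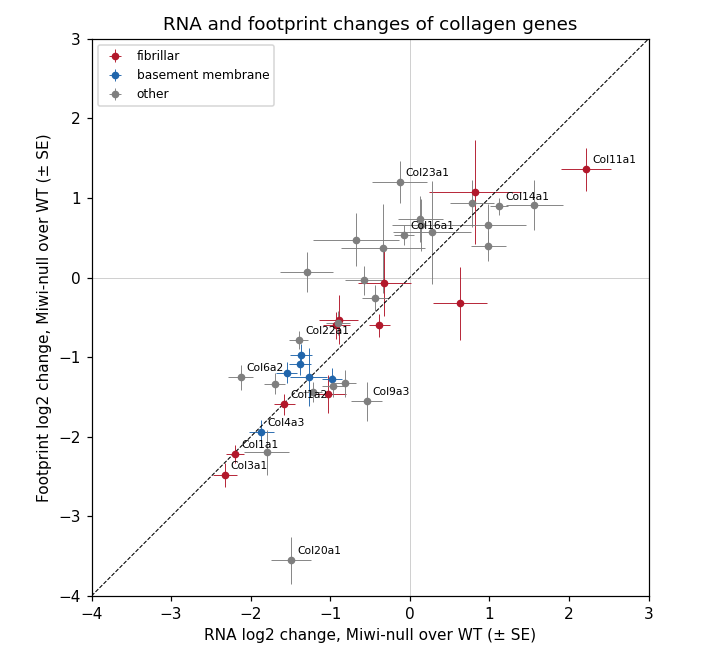
Footprint change (y axis) against RNA change (x axis) of the 42 tested collagen genes, both as log2 of Miwi-null over WT with their SE, coloured by class, with the dashed line where both are equal. Most genes lie near the line, Col20a1 lies far below it at -1.49 and -3.55, and Col16a1 and Col23a1 lie above it.

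Changes in translational efficiency were fewer. Of 42 collagens 2 were higher and 1 lower in null testes, against 7.36% higher and 7.56% lower of all genes tested, and the median TE change was 0.17 for collagens and 0.04 for all genes. Neither count was a larger share of the collagens than the background. Beside Col20a1, these were Col22a1 (0.61 ± 0.17, edgeR adjusted p = 0.0413) and Col6a2 (0.87 ± 0.22, adjusted p = 0.0351), whose RNA fell more than their footprints. The Col22a1 call was lost without any single RNA library, WT RPF replicate 1 or null RPF replicate 2 (0.0586 to 0.192). The Col6a2 call was lost without any single library other than WT RPF replicate 2 (0.0525 to 0.138). Scaling also ended both calls: without TMM the edgeR adjusted p was 0.132 for Col22a1 and 0.0503 for Col6a2. Over all alternative fits the Col22a1 call held in 7 of 18 and the Col6a2 call in 8 of 18. Without TMM the TE change of a gene moved by a median of -0.14 and its RNA change by 0.10. The number of collagens called in TE depended on the fit, with fewer in some and more in others, as given in the closing section.

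Within a genotype, footprints were set against RNA as shares of their own libraries. In null testes 19 collagens had a lower share of footprints than of RNA and 6 a higher one, with 37.1% of all genes lower and 38.4% higher. In WT testes 23 were lower and 3 higher, with 36.4% of all genes lower and 37.7% higher. Collagen coding sequences are long, with a median of 4401 bases (1314 to 9195) against 1362 bases for all genes tested, and the ratio of footprints to RNA fell with coding length over all genes. Its median log2 value was 1.33 in null and 0.94 in WT for 227 genes of 128 to 256 bases, and -1.12 in null and -1.06 in WT for 913 genes of 4096 to 8192 bases. With that trend removed, 4 collagens were lower and 29 higher in null testes (31.4% and 40.9% of all genes), and 3 lower and 22 higher in WT testes (31.8% and 39.2% of all genes). The direction in which most collagens were called thus turned with the length trend in both genotypes.

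**Figure D4:**
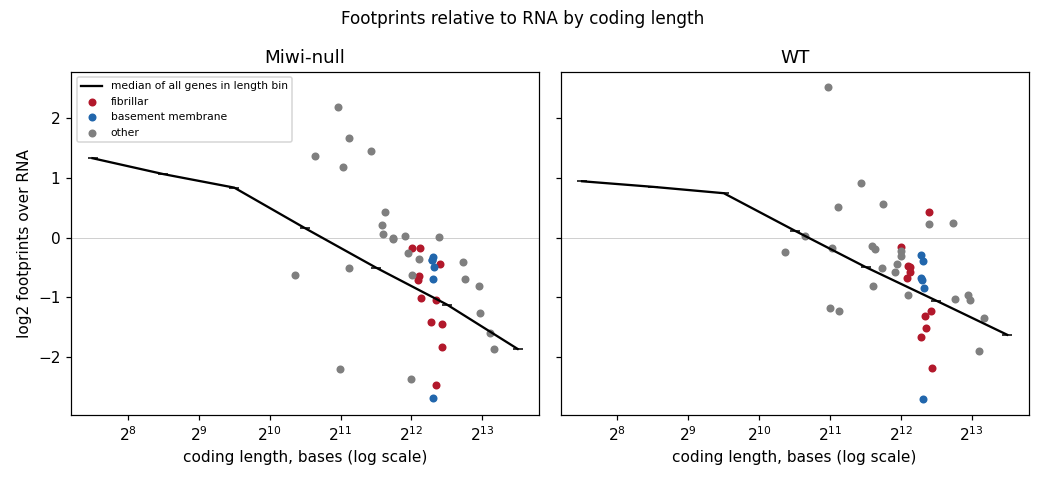
Log2 ratio of footprints to RNA (y axis) against coding length in bases (log x axis) in Miwi-null (left) and WT testes (right), with collagens as points and the median of all genes in each length bin as a line. The line falls with length in both genotypes, and most collagens lie at lengths where the median of all genes is below 0.

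Chains that assemble together were compared as ratios of FPKM within each library. An exact two-sided permutation test of 2 libraries against 2 cannot go below p = 0.333 and none was run, so the values are a description. Col1a1 over Col1a2 was 0.443 and 0.483 in null RNA against 0.701 and 0.712 in WT RNA, and 0.277 and 0.361 in null footprints against 0.524 and 0.465 in WT footprints. The ratio was lower in null testes in both assays, without overlap. A type I collagen molecule holds 2 chains of Col1a1 and 1 of Col1a2. Col4a1 over Col4a2 was 1.29 and 1.46 in null RNA against 1.22 and 1.23 in WT RNA, and 1.54 and 1.46 in null footprints against 1.39 in both WT footprint libraries. Col5a1 over Col5a2 was 10.5 and 7.95 in null RNA against 6.13 and 5.43 in WT RNA, and 7.19 and 6.33 in null footprints against 3.36 and 4.04 in WT footprints. These 2 ratios were higher in null testes in both assays, and Col5a2 is counted from few reads. Col6a1 over Col6a2 was 2.35 and 2.13 in null RNA against 1.68 and 1.65 in WT RNA, while in footprints, at 2.62 and 2.37 in null against 2.81 and 2.47 in WT, the genotypes overlapped. Col6a3 over Col6a1 was 0.295 and 0.376 in null RNA against 0.238 and 0.239 in WT RNA, and 0.106 and 0.130 in null footprints against 0.136 and 0.122 in WT footprints, where the genotypes overlapped. Col6a3 was represented by a transcript of 8031 bases, while its longest coding one has 9852. With the longest one the mean ratio was 0.245 in null RNA and 0.189 in WT RNA.

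**Figure D5:**
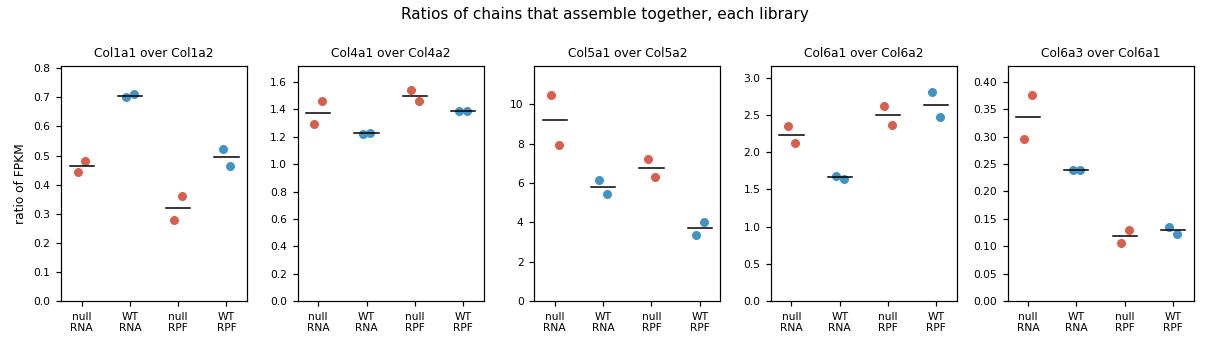
Ratio of FPKM between chains that join in 1 molecule (y axis, starting at 0), with a point for each library, null (red) left of WT (blue) for RNA and then footprints, and lines at the mean of 2. Col1a1 over Col1a2 is lower in null libraries in both assays, at a mean of 0.463 in null against 0.706 in WT RNA and 0.319 in null against 0.495 in WT footprints.

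Collagen chains are modified and folded in the endoplasmic reticulum before they are secreted. Of 19 tested modifying enzymes and chaperones 7 were lower and 2 higher in RNA, and 9 lower and 2 higher in footprints, with medians of -0.29 and -0.35. The shares over all genes, given above and valid for each list that follows, were 20.8% lower and 16.5% higher in RNA and 13.4% lower and 12.0% higher in footprints. Serpinh1, the chaperone that binds the collagen triple helix, had 6.74 and 5.66 CPM in null RNA against 27.5 and 26.6 CPM in WT RNA, and 14.6 and 11.9 CPM in null footprints against 30.9 and 36.6 CPM in WT footprints. No null library reached a WT library of its assay. Serpinh1 fell by 2.12 ± 0.17 in RNA and by 1.36 ± 0.15 in footprints (edgeR adjusted p = 4.45e-05 and 0.000288). Colgalt1, which adds galactose to collagen, fell by 1.01 ± 0.11 and 0.92 ± 0.11, and the lysyl hydroxylase Plod1 by 0.81 ± 0.16 in RNA. Mia3, needed for the export of procollagen, rose by 0.66 ± 0.09 in RNA. Colgalt2 had 29 counts in null RNA against 3 in WT RNA, a ratio of 11.2 for which an exact 95% counting interval runs from 3.46 to 57.3, and its RNA call was lost without WT RNA replicate 1 (edgeR adjusted p = 0.0620). The count of 7 lower in RNA became 4 when WT RNA replicate 1 or null RNA replicate 2 was left out and 3 when null RNA replicate 1 was, and that of 9 lower in footprints was 6 to 9 when single libraries were left out. The 2 higher genes became 1 in RNA without WT RNA replicate 1, and 1 in footprints without any single library other than WT RPF replicate 2.

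After secretion, procollagen is trimmed and cross-linked. Of the 15 genes of these steps 4 were lower and 2 higher in RNA and 5 lower and 2 higher in footprints, with medians of -0.34 and -0.37. The RNA counts lie near the 20.8% lower and 16.5% higher of all genes. The cross-linking oxidase Loxl2 fell by 1.24 ± 0.22 in RNA and 1.49 ± 0.21 in footprints, and Adamts2, which removes the procollagen N-propeptide, by 1.18 ± 0.16 and 0.86 ± 0.16. Lox was called lower in footprints alone, with 13 counts in null against 92 in WT footprints. In RNA it had 19 counts in null against 36 in WT. Of 18 collagen-binding matrix proteins 8 were lower and 2 higher in RNA and 10 lower and 1 higher in footprints, with medians of -0.61 and -0.62. Fibrillin-1 (Fbn1) fell by 1.48 ± 0.15 in RNA and 2.10 ± 0.16 in footprints, and the microfibril protein Mfap4 by 1.54 ± 0.16 and 1.62 ± 0.13. Fibromodulin (Fmod), which binds fibre surfaces, had 1 count in each null RNA library against 28 and 31 counts in WT RNA, and 5 and 9 counts in null footprints against 88 and 42 in WT footprints. Its RNA ratio of null over WT was 0.0391 (exact 95% counting interval 0.00463 to 0.148). The 4 lower genes of trimming and cross-linking became 2 without WT RNA replicate 1, null RNA replicate 1 or null RNA replicate 2. Counts of higher RNA genes reached 0 in both lists without WT RNA replicate 1, while the 8 lower matrix proteins were 6 to 8 when single libraries were left out.

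Partners of type IV collagen in the basement membrane had 11 of 18 genes lower and 1 higher in RNA and 10 lower in footprints, with medians of -0.52 and -0.64, where 20.8% of all genes were lower in RNA and 13.4% in footprints. Nid1, which links laminin to type IV collagen, had 25.6 and 29.9 CPM in null RNA against 65.7 and 57.1 CPM in WT RNA, and fell by 1.15 ± 0.13 in RNA and 1.30 ± 0.13 in footprints. The laminin chains Lamb2 and Lamc3 fell by 0.92 ± 0.10 and 0.90 ± 0.12 in RNA. Lama2 was called lower in footprints and in TE (-0.83 ± 0.15, edgeR adjusted p = 0.0105), a TE call lost without WT RNA replicate 1 (0.0680), null RNA replicate 1 (0.0667) or null RNA replicate 2 (0.0650). The RNA count of 11 became 6 without WT RNA replicate 1, null RNA replicate 1 or null RNA replicate 2. Of 9 tested collagen receptors 1 rose and 1 fell in RNA and 1 fell in footprints, and of 10 tested genes of collagen breakdown 2 rose and 2 fell in RNA, with 2 up and 1 down in footprints. Other than the receptor that rose in RNA, each of these small counts changed when 1 library was left out, to between 0 and 3. The receptor chain Itga1 rose by 1.37 ± 0.18 in RNA, at 78.8 and 74.5 CPM in null against 28.7 and 30.6 CPM in WT, while its footprints changed by 0.01 ± 0.19 (edgeR adjusted p = 0.978). Its TE change of -1.36 ± 0.26 (edgeR adjusted p = 0.0122) did not pass without any 1 of the 4 RNA libraries (0.0547 to 0.0800).

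Markers of the cells that make testis matrix are given beside the background of all genes tested, 20.8% lower and 16.5% higher in RNA and 13.4% lower and 12.0% higher in footprints. Of 14 peritubular myoid and smooth muscle markers 10 were lower in RNA and 3 in footprints. Their summed level was 266 to 268 CPM in null RNA against 565 to 595 CPM in WT RNA, and 747 to 775 CPM in null footprints against 905 to 956 CPM in WT footprints. Of 13 tested fibroblast and stromal markers 6 were lower in RNA and 7 in footprints, and the sums were 153 CPM in both null RNA libraries against 213 to 220 CPM in WT RNA, and 183 to 191 CPM in null footprints against 269 to 283 CPM in WT footprints. Of 18 Sertoli markers 12 were lower in RNA, at 1989 to 1996 CPM in null against 2792 to 2862 CPM in WT, and 7 were lower and 1 higher in footprints, at 7600 to 7931 CPM in null against 8595 to 9104 CPM in WT.

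Of 12 endothelial markers 4 were lower in RNA and 8 in footprints, with 1 higher in footprints, and they summed to 56.2 to 59.0 CPM in null RNA against 75.5 to 83.6 CPM in WT RNA. Leydig markers went the other way, with 5 of 12 tested higher and 1 lower in RNA, at 2419 to 2430 CPM in null against 1318 to 1325 CPM in WT, and 8 higher in footprints. Macrophage markers had 3 of 12 higher and 1 lower in RNA, at 234 to 237 CPM in null against 270 to 289 CPM in WT. In footprints 1 macrophage marker was higher and 2 were lower. The RNA counts of endothelial and macrophage markers are not far from the shares over all genes. All 10 late spermatid markers were lower in both assays, at 1838 to 1845 CPM in null RNA against 15485 to 15781 CPM in WT RNA. No marker was at 0 in every library. The part of these cell types in the collagen changes was not tested.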

How the data were processed

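The study sequenced total RNA and ribosome-protected fragments of testes, with 2 libraries for each genotype and assay. Groups and replicate numbers came from the sample titles. The authors deposited whole-number fragment counts per transcript, not normalized, and FPKM values that, per the file headers and the values, use the coding length and the fragment total of each library. Per the submitters' processing notes, the tools were STAR 2.5.0a, Bowtie 1.2.2 and cutadapt 2.5, with build GRCm38. How fragments were counted, by strand or not and with what treatment of multiple mapping, is not given in the sources used here. A fragment could be counted for several transcripts, so each gene was represented by its transcript with the highest mean count. The merged table was used only to check that its counts are the replicates' sums, which held in all 99671 rows.

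Counts were fitted in R 4.3.3 with edgeR 4.0.16 (filterByExpr, minimum count 10 and minimum total 15; TMM over 8 libraries; robust quasi-likelihood fit to 4 groups; 4 residual degrees of freedom), which kept 16051 genes. TE changes are the interaction of genotype and assay. Counting intervals cover counting error only. DESeq2 1.42.0 was an alternative. The fitting code was tested on simulated data. Members and lists were chosen with earlier results of these data known. All collagens are accounted for. Values in every library are given for the 4 most abundant members of each class and the largest called changes, and up to 3 called genes were named per pathway list and direction. Coordinates and promoters are from RefSeq, GRCm38.p6.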

Additional observations from a re-analysis of the deposited data

How the results depend on the processing

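Of the 26 collagen calls in RNA 21 held in every alternative, of the 27 in footprints 20, and of the 3 in TE 0; no collagen call changed direction. Counts of lower collagens, in all and by class, stayed within 1.5 times in RNA and footprints. With the 4 libraries of 1 assay fitted alone, 7 were higher in RNA and 3 in footprints, and counts summed over transcripts also gave 3 higher in footprints. Leaving out single libraries gave 3 to 8 higher in footprints, 0 to 5 higher and 0 to 2 lower in TE, and 15 to 26 lower for footprints against RNA in WT, with the 15 from the fit without WT RPF replicate 1. In TE, 0 were higher and 2 lower without TMM, and 1 was higher with TMM within each assay or with DESeq2. Removal of the length trend gave 29 higher and 4 lower for footprints against RNA in null testes, and 22 higher and 3 lower in WT. With the longest transcripts Col6a3 over Col6a1 was 0.245 in null RNA, 0.189 in WT RNA, 0.0981 in null footprints and 0.105 in WT footprints. The causes were not tested.

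Same-numbered samples did not deviate together (r = -0.00 between null and WT RNA, -0.81 between null and WT footprints, 0.02 between null RNA and null footprints, 0.07 between WT RNA and WT footprints), so the numbers as labelled do not pair them. The footprint libraries shared strong structure the other way, replicate 1 of one genotype deviating with replicate 2 of the other; whether numbers were crossed or a batch is shared was not tested. With the replicate block, 4 collagens were higher and 22 lower in RNA, 4 and 20 in footprints, 0 and 1 in TE, 6 and 19 for footprints against RNA in null testes and 2 and 23 in WT. A block with the footprint numbers crossed, chosen after seeing the data, gave 8 higher in footprints and 10 higher and 2 lower in TE. Shares over all genes were not worked out for either block fit, so these counts cannot be set against a background. Genes near 1 CPM rest on few counts, and footprint errors share a dispersion with RNA, so TE calls are the least firm.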
